A study of Mus musculus with 8 samples.

Results

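The genes of the response to low oxygen were examined in a mouse pancreatic alpha cell line given extra Yy1. The set held 33 genes, chosen by name as the hypoxia-inducible factor (HIF) machinery and HIF targets outside core glycolysis, and each matched 1 of the 75078 Ensembl gene IDs in the table. Of these, 31 had enough counts to be tested, and Hif3a and Car9 did not. The cells were aTC1-6, a clonal glucagon-producing line grown from a tumour of a transgenic mouse. For all 8 libraries, transfection followed seeding by 24 h, in DMEM whose label reads 11 mM. A stuffer plasmid without insert was given to 4 samples (empty plasmid 31, 32, 33 and 34), and a plasmid overexpressing Yy1, a zinc finger transcription factor, to the other 4 (Yy1 plasmid 45, 46, 47 and 48). The labels do not say whether the samples were separate cultures, so the p-values cover only the spread from sample to sample, which could be technical.

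HIF is a pair of proteins, an oxygen-regulated alpha subunit (HIF-1α, HIF-2α or HIF-3α) and the constant partner ARNT. With oxygen present, prolyl hydroxylases of the EGLN family mark the alpha subunit, VHL binds it, and it is destroyed. When oxygen is scarce the alpha subunit survives and switches on genes for anaerobic metabolism, removal of mitochondria, vessel growth and collagen modification. Most of this control acts on the HIF-1α protein, which was not measured here, and the target transcripts are its usual readout.

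HIF binds the short core ACGTG or GCGTG in promoters and enhancers. RefSeq promoter windows (GRCm38.p6, 250 bases before to 50 after the transcript start) were found for 27 of the 33 members. Of these 27 genes, 25 had ACGTG or GCGTG on at least 1 strand in at least 1 window, or 92.6%, against 67.1% of the 10569 tested genes with a window and 46.7% of all 27025 genes with one. The core ACGTG alone was present for 19 of the 27, or 70.4%, against 29.1% of tested genes. All 19 of the targets with a window had one of the cores, while the single windows of Vhl and Hif1an held neither. The letters AANATGG, part of the YY1 motif, were found on either strand for 2 of the 27 (Arnt and Egln2), or 7.41%, against 17.8% of tested genes. These matches describe sequence only, members were not matched to other genes on base composition, and genes with several windows had more chances to hold a core. The 250 bases before the start are shown for the 5 members with the smallest p that had a window, and for Ldha. Matches were counted on each strand, so a palindrome counted as 2. On that count Ldha held the most matches of any member over the whole window of 300 bases, with 7. Each is read 5′ to 3′ on the strand of the gene, and where a gene had several windows the one with the most matches is given. Capitals mark ACGTG or GCGTG, or their reverse complements CACGT and CACGC.
Fam162a, chr16:36071562-36071811, minus strand: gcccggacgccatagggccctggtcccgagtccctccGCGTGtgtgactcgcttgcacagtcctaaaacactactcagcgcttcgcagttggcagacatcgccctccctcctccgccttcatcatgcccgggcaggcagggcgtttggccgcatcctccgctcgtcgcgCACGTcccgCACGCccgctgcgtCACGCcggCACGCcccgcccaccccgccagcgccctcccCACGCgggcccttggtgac
Pdk1, chr2:71872974-71873223, plus strand: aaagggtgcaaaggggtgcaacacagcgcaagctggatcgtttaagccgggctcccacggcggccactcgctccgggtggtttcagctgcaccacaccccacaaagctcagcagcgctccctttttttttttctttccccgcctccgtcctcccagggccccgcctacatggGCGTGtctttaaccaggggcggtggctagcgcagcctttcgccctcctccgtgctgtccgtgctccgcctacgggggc
Kdm3a, chr6:71632918-71633167, minus strand: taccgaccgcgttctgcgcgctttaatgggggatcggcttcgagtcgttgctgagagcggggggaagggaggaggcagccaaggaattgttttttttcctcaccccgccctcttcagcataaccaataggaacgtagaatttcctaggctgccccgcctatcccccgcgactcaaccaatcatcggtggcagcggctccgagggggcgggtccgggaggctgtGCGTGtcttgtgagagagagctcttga
Adm, chr7:110627407-110627656, plus strand: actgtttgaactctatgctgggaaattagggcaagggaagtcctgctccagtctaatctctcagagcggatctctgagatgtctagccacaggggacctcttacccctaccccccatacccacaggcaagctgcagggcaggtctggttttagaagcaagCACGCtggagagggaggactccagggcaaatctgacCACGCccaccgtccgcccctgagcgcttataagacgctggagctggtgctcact
Hk2, chr6:82774455-82774704, minus strand: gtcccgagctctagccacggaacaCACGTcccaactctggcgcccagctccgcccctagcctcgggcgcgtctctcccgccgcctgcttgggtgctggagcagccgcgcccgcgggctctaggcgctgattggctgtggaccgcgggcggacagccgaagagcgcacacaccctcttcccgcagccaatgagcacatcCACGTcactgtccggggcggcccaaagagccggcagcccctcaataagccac
Ldha, chr7:46845554-46845803, plus strand: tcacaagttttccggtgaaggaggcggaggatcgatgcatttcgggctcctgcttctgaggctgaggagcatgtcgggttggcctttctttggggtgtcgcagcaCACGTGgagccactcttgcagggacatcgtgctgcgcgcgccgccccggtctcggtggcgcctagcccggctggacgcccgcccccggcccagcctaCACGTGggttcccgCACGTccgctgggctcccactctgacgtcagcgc
In the Fam162a stretch 6 matches were found, 5 of them GCGTG, and the 4 matches at 81, 72, 58 and 50 bases before the start lay close together. In the printed bases Pdk1 and Kdm3a each held a single GCGTG, at 78 and 27 bases before the start. In Ldha, both 6-base runs in capitals are palindromes, in which ACGTG can be read on either strand. With each palindrome counted once, Ldha would hold fewer matches than Fam162a.

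None of the members passed the test, but most sat slightly lower with the Yy1 plasmid. By edgeR's quasi-likelihood test over 15916 genes, 0 of 31 members had an adjusted p under 0.05, against 0.515% of all tested genes. DESeq2 and limma-voom also called 0. In simulated counts with known changes, edgeR called 6% of genes changed 1.1-fold and 57.3% of those changed 1.2-fold. A member that was not called may thus still differ by that much. Every simulated gene had the same spread and no library stood apart, so these shares may be too high for members with a wide spread. Negative log2 fold changes were found for 27 of the 31, against 51.4% of all genes, and the members' median was -0.13, against -0.002 over all genes. An unadjusted p under 0.05 was found for 12 members, all lower, where 2.19% of all genes had one in that direction. The libraries of both groups did not overlap for 2 members, Pdk1 and Kdm3a, both lower, against 1.57% of all genes. Of the 23 tested targets 22 had negative values, with a median of -0.13, while the 8 tested members of the HIF machinery had a median of -0.03 and none with an unadjusted p under 0.05. In such bulk RNA, fewer cells that express a gene and less of its RNA per cell cannot be told apart, nor can the plasmid and any difference in handling between the groups. With no filter on low counts the test called 3 members, Adm (edgeR adjusted p = 0.00126), Fam162a (0.022) and Slc16a3 (0.0293), where 0.43% of the 40437 genes then tested were called. Their log2 fold changes hardly moved from the filtered fit, while their SEs fell. These went from 0.121 to 0.0796 for Adm, 0.0529 to 0.0458 for Fam162a and 0.0894 to 0.0468 for Slc16a3. With the filter but without empty plasmid 32, Adm came to -0.22 and Slc16a3 to -0.09.

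One control library stood apart in this set. Empty plasmid 32 held the highest level of all 8 libraries for 25 of the 31 members, or 80.6%, against 13.9% of all tested genes. Without it, 24 of 31 members were lower (50.8% of all genes), the median was -0.08, and 4 members had an unadjusted p under 0.05 (2.58% of all genes in that direction). These 4 were Fam162a, Adm, Pdk1 and Kdm3a. Leaving out a library cannot create overlap, so Pdk1 and Kdm3a necessarily stayed without it. No further member joined them in that direction, where the groups did not overlap for 3.33% of all genes. None was then called by edgeR, against 0.429% of all genes.

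**Figure D1:**
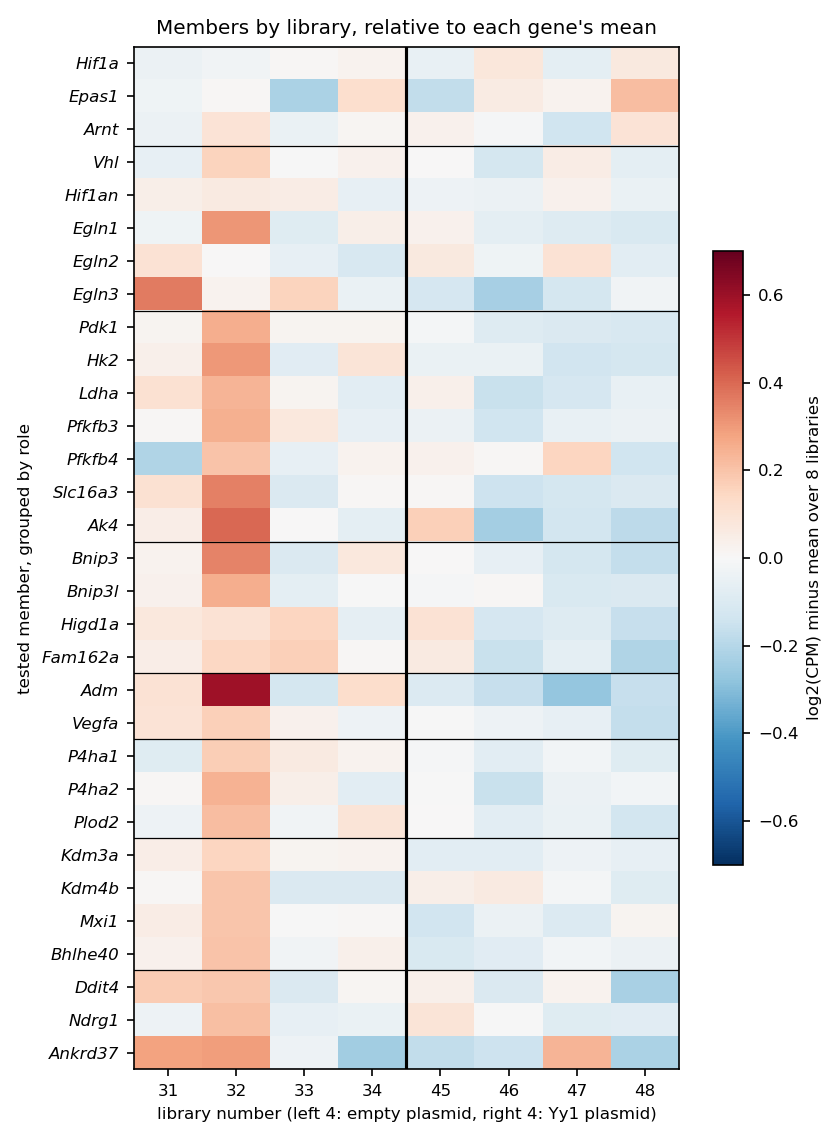
Heat map of the 31 tested members (rows, grouped by role with thin lines) in the 8 libraries (columns, thick line between the plasmids), coloured by log2(CPM) minus the gene's mean over all libraries. Empty plasmid 32 is the reddest column, with the highest level for 25 of 31 members, and the Yy1 plasmid columns are mostly pale blue in the target rows.

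Over the whole table the libraries also differed in other ways. Totals ran from 20679804 to 33347445 estimated counts, the smallest in empty plasmid 33, and genes with at least 1 count numbered 25913 to 27957 with the empty and 28836 to 29365 with the Yy1 plasmid, without overlap. Empty plasmid 33 differed most from its replicates (chi-square per degree of freedom 9.63 to 13.9, against 2.92 to 6.48 for all other pairs) and was the highest library for 19.4% of all tested genes, but for 2 of the 31 members. Yy1 stood at 175 ± 5.33 CPM (counts scaled to a common library size) with the empty plasmid and at 5233 ± 464 CPM with the Yy1 plasmid (n = 4, SD; log2 fold change 4.90, edgeR adjusted p = 7.38e-24). Transcripts of mitochondrial DNA made up 8.04% to 8.89% of counts with the empty plasmid and 8.18% to 8.75% with the Yy1 plasmid. Empty plasmid 32 had 8.81%. Within both groups this share was lower in libraries with odd numbers (8.04% to 8.24%) than with even numbers (8.55% to 8.89%). Transcripts of ribosomal proteins ran the other way, at 1.72% to 1.78% in odd and 1.58% to 1.63% in even libraries. The 14 alpha cell markers summed to between 33082 and 35251 CPM in every library, with Gcg at 21228 ± 547 and 21291 ± 372 CPM (SD, n = 4). Of 12 markers of other islet cells, Ins1, Ins2, Ucn3 and Ppy had 0 counts in every library, and the sum was 53.6 to 58.1 CPM with the empty and 49.7 to 59.7 CPM with the Yy1 plasmid, mostly from Nkx6-1. The 16 acinar and duct markers, of which Prss1, Prss2, Ptf1a and Cftr had 0 counts, summed to 25.2 to 28.6 and 27.5 to 31.8 CPM. All 6 tested genes of that list had positive log2 fold changes with a median of 0.14, none was called by edgeR, Sox9 had an unadjusted p under 0.05, and Sox9 and Spp1 had groups that did not overlap (2.37% of all genes did so in that direction). For 17 stromal, endothelial and immune markers the sums were 4.71 to 8.92 and 6.40 to 8.16 CPM, with empty plasmid 32 at 8.92. In this list 1 of 4 tested genes had an unadjusted edgeR p under 0.05, lower. For 1 gene of it, lower, the groups did not overlap (1.57% of all genes did so in that direction). An unadjusted edgeR p under 0.05 was also found for 1 of 14 alpha cell markers, lower, and 1 of 4 tested other islet markers, higher. None of these lists held a called gene. The part of these in the members' values was not tested.

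Among the HIF subunits, the transcript levels of both groups overlapped throughout. Hif1a, which encodes the oxygen-regulated HIF-1α, stood at 174, 176, 180 and 182 CPM in empty plasmid 31 to 34 and at 173, 189, 171 and 188 CPM in Yy1 plasmid 45 to 48. Its log2 fold change was 0.02 (SE 0.0416; edgeR adjusted p = 0.997), and empty plasmid 32 was not high for this gene. Arnt, the shared partner, averaged 60 ± 2.75 and 59.6 ± 3.98 CPM (n = 4, SD; log2 fold change -0.01, SE 0.0504, or 0.02 without empty plasmid 32). Epas1, which encodes HIF-2α, averaged 20.6 ± 1.95 and 21.5 ± 2.36 CPM (log2 fold change 0.06, SE 0.0795). Hif3a, whose products can restrain the other alpha subunits, gave 0, 5, 2 and 3 counts in the controls and 1, 0, 5 and 7 in the Yy1 libraries, too few for a comparison. Per kilobase of annotated exon in the control cells, Hif1a stood at 30.2 ± 0.586 CPM, Arnt at 7.50 ± 0.343, Epas1 at 3.68 ± 0.350 and Hif3a at 0.0147 ± 0.0115 (SD, n = 4). No pair of neighbours in that order came within its SDs.

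None of the 5 oxygen sensing and degradation genes had an unadjusted p under 0.05. Egln1 encodes PHD2, the main prolyl hydroxylase and itself a HIF target. It had 229, 290, 221 and 241 CPM with the empty plasmid and 239, 223, 220 and 217 CPM with the Yy1 plasmid. Only empty plasmid 32 was clearly high, and the log2 fold change went from -0.13 (SE 0.0785) to -0.04 (SE 0.0454) without it. Egln3, a hydroxylase strongly induced by HIF in many cells, had 5.10, 4.03, 4.41 and 3.83 CPM against 3.65, 3.37, 3.64 and 3.89 CPM, so that Yy1 plasmid 48 overlapped empty plasmid 34. Its log2 fold change was -0.26 (SE 0.129; edgeR adjusted p = 0.911), and here empty plasmid 31, not 32, was highest, so the value without 32 was -0.29 (SE 0.143). Egln2, a hydroxylase not known for induction by hypoxia, averaged 63.2 ± 4.09 and 64.6 ± 3.70 CPM (n = 4, SD; log2 fold change 0.03, SE 0.0512). Vhl, the recognition subunit of the ubiquitin ligase, averaged 42.3 ± 2.69 and 40.4 ± 2.19 CPM (log2 fold change -0.07, SE 0.0542, or -0.02 without empty plasmid 32). Hif1an, which encodes the asparaginyl hydroxylase FIH, averaged 71.9 ± 2.74 and 69.5 ± 1.77 CPM (log2 fold change -0.05, SE 0.0427). Per kilobase, control levels of the hydroxylases were 68.3 ± 8.64 CPM for Egln1, 22.6 ± 1.46 for Egln2 and 1.63 ± 0.210 for Egln3 (SD, n = 4), and these did not overlap.

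Targets that redirect glucose carbon away from mitochondria held 4 of the 12 members with an unadjusted p under 0.05, or only 1, Pdk1, without empty plasmid 32. Pdk1 encodes a kinase that blocks entry of pyruvate into the TCA cycle. It stood at 135, 159, 135 and 135 CPM with the empty plasmid and at 132, 125, 124 and 123 CPM with the Yy1 plasmid. Every Yy1 library lay below every control, 3 controls were nearly identical, and empty plasmid 32 stood above them. The log2 fold change was -0.16 (SE 0.0501; edgeR unadjusted p = 0.00395, adjusted p = 0.353), and the two-sided exact permutation p of 0.0286 was the smallest that 4 against 4 libraries allow. Without empty plasmid 32 it was -0.10 (SE 0.0419).

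Hk2, the inducible hexokinase, had 32.4, 39.0, 29.9 and 33.7 CPM against 30.6, 30.6, 28.8 and 29.0 CPM. Only empty plasmid 33 lay within the range of the Yy1 libraries, and the log2 fold change was -0.19 (SE 0.0653; edgeR adjusted p = 0.560), or -0.11 (SE 0.0587) without empty plasmid 32. Ldha, which converts pyruvate to lactate, had 689, 754, 647 and 608 CPM against 656, 573, 590 and 617 CPM, with broad overlap (log2 fold change -0.15, SE 0.0597; edgeR adjusted p = 0.784), and the value was -0.09 (SE 0.0507) without empty plasmid 32. Pfkfb3, which makes the activator of phosphofructokinase, averaged 66.1 ± 6.19 and 59.9 ± 1.96 CPM (n = 4, SD; log2 fold change -0.14, SE 0.0545, or -0.08 without empty plasmid 32). The related Pfkfb4 was rare and went the other way, at 4.38 ± 0.522 and 4.44 ± 0.365 CPM (log2 fold change 0.02, SE 0.125), and was the only target with a positive value. Slc16a3, the lactate exporter MCT4, had 148, 175, 128 and 138 CPM against 138, 124, 126 and 128 CPM (log2 fold change -0.19, SE 0.0894, or -0.09 without empty plasmid 32). Ak4, a mitochondrial adenylate kinase, averaged 10.8 ± 1.64 and 9.47 ± 1.22 CPM (log2 fold change -0.19, SE 0.106), and its value without empty plasmid 32 was -0.08. Car9, a surface carbonic anhydrase used as a marker of hypoxic tissue, was nearly silent. It gave 1, 0, 1 and 10 counts in the controls and 1, 1, 2 and 5 in the Yy1 libraries, so the highest was empty plasmid 34, and a count of 0 allows up to 0.113 CPM in empty plasmid 32.

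**Figure D2:**
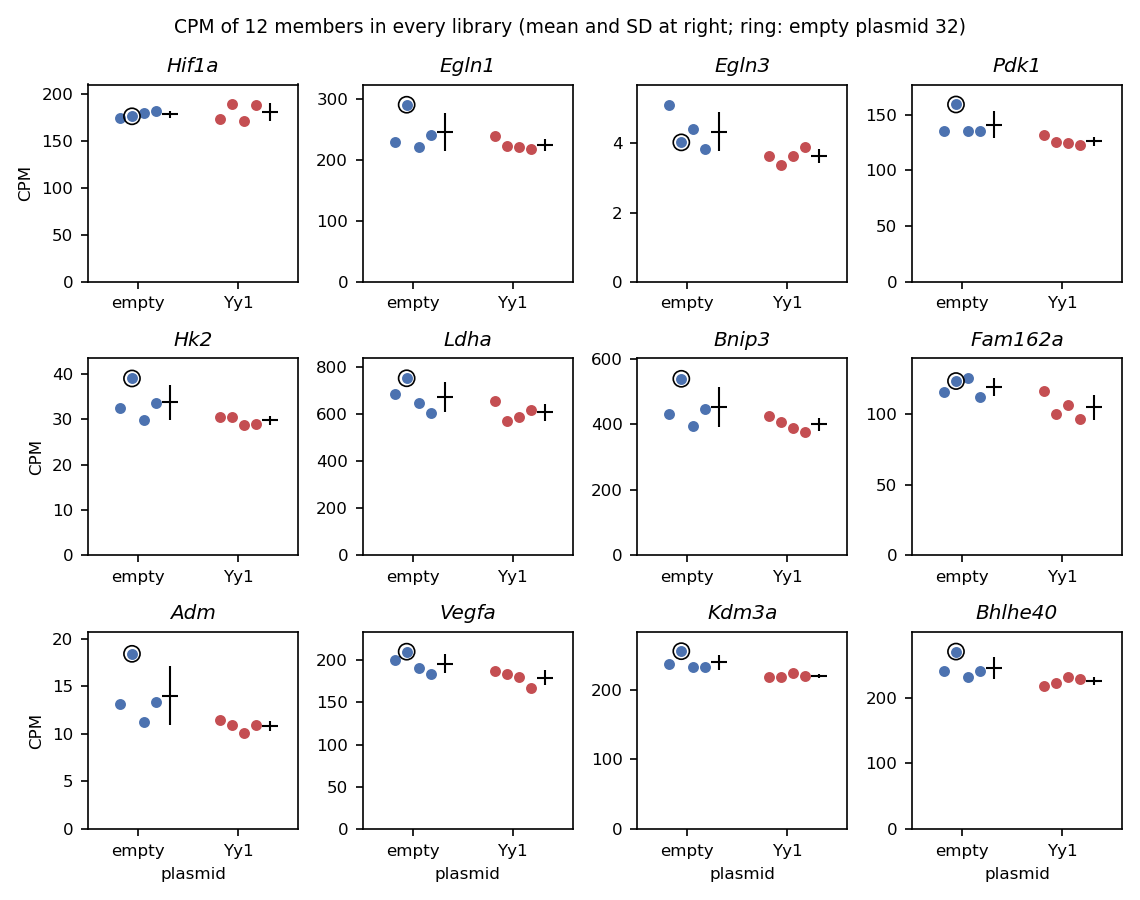
CPM (vertical axes, from 0) of 12 members in each library, blue for the empty and red for the Yy1 plasmid, with the group mean and SD as a black cross and empty plasmid 32 ringed. The ringed point is far above the other controls for Adm (18.4 CPM), Bnip3 (539 CPM) and Egln1 (290 CPM), but not for Hif1a (176 CPM) or Egln3 (4.03 CPM).

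Genes that act on mitochondria had negative values for 4 of 4 members, 2 with an unadjusted p under 0.05, or 1, Fam162a, without empty plasmid 32. Fam162a, a mitochondrial protein linked to cell death in hypoxia, had the smallest p of the set. Its levels were 115, 123, 125 and 112 CPM with the empty plasmid and 116, 100, 106 and 96.1 CPM with the Yy1 plasmid. The only overlap came from Yy1 plasmid 45, which lay above empty plasmid 31 and 34. Its log2 fold change was -0.19 (SE 0.0529; edgeR unadjusted p = 0.00224, adjusted p = 0.257), with an exact permutation p of 0.0857. Unlike most members it depended little on empty plasmid 32, at -0.17 (SE 0.0581) without that library, while without Yy1 plasmid 45 it was called (log2 fold change -0.24, edgeR adjusted p = 0.0224). Higd1a, which protects the respiratory chain in low oxygen, also had its highest level in empty plasmid 33 and averaged 208 ± 12.7 and 190 ± 15.7 CPM (n = 4, SD; log2 fold change -0.13, SE 0.0550). Bnip3, a receptor that marks mitochondria for removal, had 432, 539, 395 and 446 CPM against 425, 408, 389 and 378 CPM. Its log2 fold change was -0.18 (SE 0.0899), and it came to -0.09 (SE 0.0492) without empty plasmid 32. Bnip3l, its homologue NIX, averaged 94.2 ± 9.63 and 87.2 ± 3.67 CPM (log2 fold change -0.11, SE 0.0582, or -0.04 without empty plasmid 32). Per kilobase of annotated exon, Ldha and Bnip3 were the most abundant members in control cells, at 204 ± 18.8 and 200 ± 27.0 CPM, and did not differ beyond their SDs. The SDs cover the libraries only, so this order also rests on the exon lengths used. Fam162a followed at 140 ± 7.06 CPM.

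The largest log2 fold change of the tested members was that of Adm, which encodes the vasodilator peptide adrenomedullin. Its level was 13.1, 18.4, 11.2 and 13.3 CPM with the empty plasmid and 11.4, 10.9, 10.1 and 10.9 CPM with the Yy1 plasmid. Empty plasmid 32 was far the highest, and the only overlap was between empty plasmid 33 and Yy1 plasmid 45. The log2 fold change of -0.38 (SE 0.121; edgeR unadjusted p = 0.00793, adjusted p = 0.511) came to -0.22 (SE 0.0856) without empty plasmid 32. Vegfa, the vessel growth factor, had 200, 210, 191 and 183 CPM against 187, 183, 180 and 167 CPM (log2 fold change -0.13, SE 0.0461; edgeR adjusted p = 0.572), and -0.09 (SE 0.0465) without empty plasmid 32. Its groups overlapped at empty plasmid 34.

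The collagen-modifying enzymes all had small negative values. Plod2, a lysyl hydroxylase, averaged 117 ± 9.43 and 107 ± 3.91 CPM (n = 4, SD; log2 fold change -0.13, SE 0.0496; edgeR adjusted p = 0.692). P4ha1 and P4ha2, the catalytic subunits of collagen prolyl hydroxylase, had log2 fold changes of -0.09 (SE 0.0466) and -0.11 (SE 0.06). Without empty plasmid 32 the 3 values ran from -0.07 to -0.05.

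Of the chromatin and transcription genes, 3 of 4 had an unadjusted p under 0.05, and 1 of 4, Kdm3a, without empty plasmid 32. Kdm3a, a histone H3 lysine demethylase, had 237, 255, 232 and 233 CPM with the empty plasmid and 218, 218, 224 and 220 CPM with the Yy1 plasmid. The lowest control lay above the highest Yy1 library. The log2 fold change was -0.12 (SE 0.0396; edgeR unadjusted p = 0.00591, adjusted p = 0.427; two-sided exact permutation p = 0.0286). Without empty plasmid 32 it was -0.09 (SE 0.0395). Bhlhe40, a repressor that also acts in the circadian clock, had 240, 270, 231 and 241 CPM against 218, 222, 232 and 228 CPM (log2 fold change -0.13, SE 0.0450, or -0.08 without empty plasmid 32). Mxi1, an antagonist of MYC, averaged 56.9 ± 3.69 and 52.2 ± 2.45 CPM (n = 4, SD; log2 fold change -0.13, SE 0.0503, or -0.08 without empty plasmid 32). The other demethylase, Kdm4b, differed by less than its SDs, at 71.4 ± 7.02 and 71.1 ± 3.16 CPM (log2 fold change -0.01, SE 0.0571, or 0.06 without empty plasmid 32).

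None of the 3 remaining targets had an unadjusted edgeR p under 0.05, and the groups overlapped for each. Ddit4, which encodes the mTORC1 inhibitor REDD1 and also answers to the integrated stress response, had 146, 147, 120 and 130 CPM against 132, 120, 131 and 110 CPM (log2 fold change -0.15, SE 0.0763, or -0.11 without empty plasmid 32). Its unadjusted p was 0.0358 by DESeq2 and 0.0456 by limma-voom. Ankrd37, an ankyrin repeat gene, averaged 11.1 ± 1.92 and 10 ± 1.53 CPM (n = 4, SD; log2 fold change -0.16, SE 0.127, or -0.09 without empty plasmid 32). Ndrg1, a stress gene that many signals induce, had 69.2, 82.0, 68.2 and 68.7 CPM against 75.6, 70.9, 66.9 and 67.2 CPM, so that only empty plasmid 32 stood out among the controls. Its log2 fold change was -0.04 (SE 0.0576), or 0.03 (SE 0.0491) without that library.

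**Figure D3:**
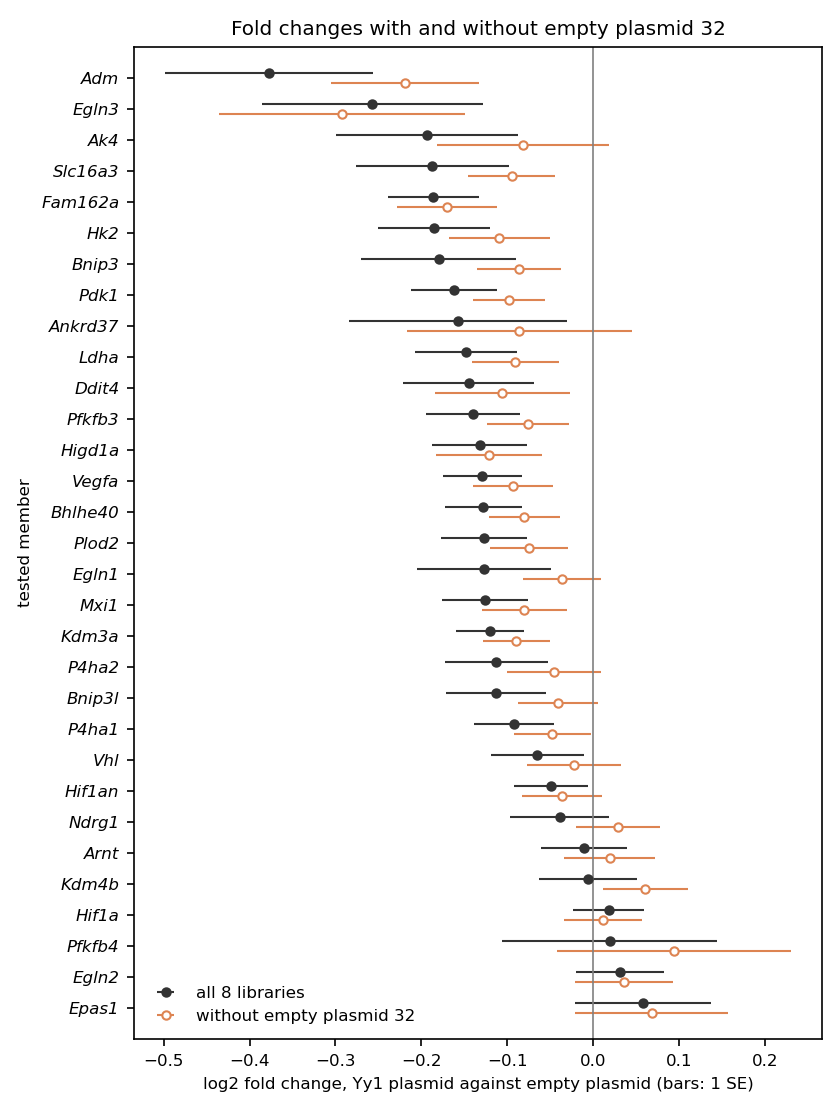
Log2 fold change of each tested member (horizontal axis; bars are 1 SE), filled for all 8 libraries and open without empty plasmid 32, ordered by the first. Most open points lie nearer 0, with the median going from -0.13 to -0.08, while Fam162a (-0.19 and -0.17) and Egln3 (-0.26 and -0.29) kept similar values.

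The members that peaked in empty plasmid 32 were mostly targets. Of the 23 tested targets 21 were highest there, the exceptions being Higd1a and Fam162a. Of the 8 machinery genes 4 were, namely Arnt, Vhl, Hif1an and Egln1. This difference in share was not tested. The members' median log2 deviation of this library from the mean of the other controls was 0.20, against -0.001 over all tested genes. In the other 7 libraries that median ran from -0.09 to 0.06. The deviation was 0.55 for Adm, 0.40 for Ak4, 0.35 for Bnip3, 0.34 for Slc16a3 and 0.33 for Egln1, but -0.02 for Hif1a. The median coefficient of variation of the members was 9.26% among the 4 controls and 4.52% without empty plasmid 32, beside 4.95% among the Yy1 libraries. For the 9982 genes with an average log2 CPM of at least 3 it was 5.43%, 5.28% and 4.04%.

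**Figure D4:**
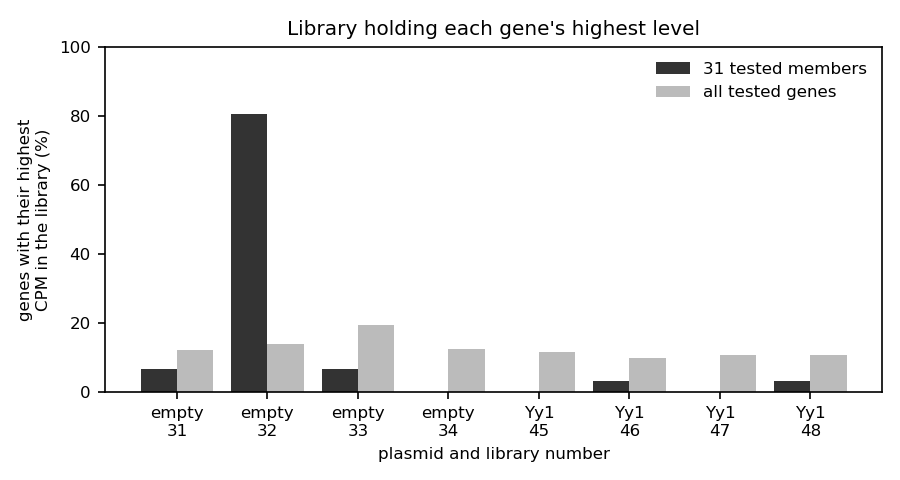
Percent of genes (vertical axis) whose highest CPM among the 8 libraries fell in each library (horizontal axis), for the 31 tested members in black and all tested genes in grey. Empty plasmid 32 holds 80.6% of the members and 13.9% of all genes, and no member peaked in empty plasmid 34 or Yy1 plasmid 45 or 47.

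Related genes outside the set were read from the same fit, in 3 lists of HIF partners and known targets. Of 15 glycolytic HIF targets, from glucose uptake to pyruvate kinase, 15 had negative log2 fold changes, with a median of -0.09 and 2 with an unadjusted p under 0.05. None was called by edgeR, and 13 of the 15 were highest in empty plasmid 32. The log2 fold changes were -0.12 (SE 0.0457) for Tpi1, triosephosphate isomerase, and -0.17 (SE 0.0722) for Eno2, the neuronal enolase. Pgam1, phosphoglycerate mutase, had -0.09 (SE 0.0445). Without empty plasmid 32, 12 of 15 were negative, the median was -0.04 and none had an unadjusted p under 0.05.

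Of 46 further hypoxia targets 41 were tested, 31 with negative values, a median of -0.06 and none called by edgeR. Only Narf, a nuclear protein gene, had an unadjusted p under 0.05 (log2 fold change -0.18, SE 0.0727), and 22 of the 41 peaked in empty plasmid 32. Stc2, which encodes the secreted stanniocalcin-2, had a positive value of 0.78 (SE 0.377) at a mean of 0.321 CPM in controls, and Klf6, a zinc finger factor, had 0.11 (SE 0.0546). Without empty plasmid 32, 24 of 42 tested genes of this list were negative and 18 positive, with a median of -0.02. None of the negative genes then had an unadjusted p under 0.05, with Narf at -0.14 (SE 0.0766), while Stc2 stood at 1.1 (SE 0.425, log2 fold change). The 24 other HIF regulators, such as coactivators and subunits of the VHL ligase, had 14 negative and 10 positive values and a median of -0.01. None was called by edgeR, and 4 of the 24 peaked in empty plasmid 32. Crebbp, a coactivator of HIF, was 1 of 24 with an unadjusted p under 0.05 (log2 fold change 0.13, SE 0.0564), a share near the 5.42% of all genes. Hsp90aa1, a chaperone of HIF-1α, had -0.09 (SE 0.0434) and Elob, a subunit of the VHL ligase, 0.09 (SE 0.0578). These 3 genes, without empty plasmid 32, had unadjusted edgeR p of 0.0307, 0.0195 and 0.0227, with log2 fold changes of 0.15, -0.11 and 0.14.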

How the data were processed

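Poly(A) RNA was made into directional libraries, per the labels' protocols. Per the submitters' processing notes, reads went through fastp and kallisto with the build GRCm39 (no versions given). How transcripts were summed to genes is not given in the sources used here. The deposited table holds expected counts (estimated counts per Ensembl gene), which the authors did not scale for depth, and the sample descriptions tie its columns to samples. Counts were rounded to whole numbers here. Symbols came from a reference list of gene names, with RefSeq synonyms for listed symbols not found there, and 48278 of the 75078 IDs had one. Exon lengths came from GENCODE release 21 for mouse, of an older build, and pool all annotated exons of a gene. SDs of levels per kilobase do not cover error in these lengths. Promoters came from RefSeq (GRCm38.p6). Estimated counts divide reads shared between similar transcripts, so members whose exons overlap another gene are less certain. Hif1a overlapped Gm49321 on its own strand. For others, such as Ankrd37 and Fam162a, the overlap was only on the opposite strand, which matters if strand was not used in counting.

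Genes kept by filterByExpr (at least 10 counts, total of at least 15) entered edgeR 4.0.16 in R 4.3.3 after TMM scaling (glmQLFit and glmQLFTest, robust, two-sided, Benjamini-Hochberg over all 15916 genes, threshold 0.05). The SE is the log2 fold change divided by the square root of F. CPM use TMM-scaled sizes. Exact permutation tests used log2(CPM + 1) over 70 arrangements. The steps were tested on simulated data. Alternatives used DESeq2 1.42.0, limma 3.58.1 (voom) and others given in the closing section. Where 0 was counted, the limit is 3 counts (0.145 CPM in the smallest library), which covers counting error only. Replicate pairs differed beyond sampling noise (chi-square per degree of freedom 2.92 to 13.9). All members are named; of the 3 other pathway lists, the 3 genes with the smallest p and any called ones are named. The members, lists and tests were chosen with earlier results of these data known.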

Additional observations from a re-analysis of the deposited data

Results flagged for a closer look

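The highest or lowest library was set far from the other 3 of its group for 5 of 62 groups looked at (31 members with either plasmid). Chance alone flags about 1 in 20 such groups. Pdk1 (159 CPM) and Ndrg1 (82.0 CPM) were high in empty plasmid 32. Among the Yy1 libraries, Hif1an (72.1 CPM) and Ankrd37 (12.3 CPM) were high in Yy1 plasmid 47, and Pfkfb3 (57.0 CPM) was low in Yy1 plasmid 46.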

How the results depend on the processing

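Scaling by RLE, upper quartile or library size alone, leaving Yy1 out before scaling, limma-voom, DESeq2, the 1 CPM filter, a term for odd or even sample number and thinning to the smallest library left 0 members called, 26 to 28 of 31 lower and a median between -0.13 and -0.12. With no filter, all 33 members were tested, 28 were lower, 20 had an unadjusted p under 0.05, 3 were called, and 174 of 40437 genes were called in all. With the 1 CPM filter 54 genes were called, against 82. With the term for odd or even number, Fam162a had an edgeR adjusted p of 0.0582, against 0.257 in the main fit. An unadjusted edgeR p under 0.05 was then found for 1042 genes, against 862, and for 11 members, against 12. Leaving out each library in turn gave 65 to 87 called genes, 0 to 1 called members, 24 to 28 lower members, 4 to 16 members with an unadjusted p under 0.05 and a median from -0.146 to -0.08. The lowest of the last 2 counts and the median nearest 0 came without empty plasmid 32, and the 1 call without Yy1 plasmid 45. Signs near 0 turned for Kdm4b with upper-quartile scaling (0.00117) and Pfkfb4 when thinned (-0.0498). With single libraries left out, values ran from -0.0464 to 0.0319 for Arnt, -0.0414 to 0.0609 for Kdm4b, -0.0783 to 0.0292 for Ndrg1, -0.0508 to 0.0941 for Pfkfb4, -0.00132 to 0.072 for Egln2, -0.00624 to 0.0418 for Hif1a and -0.00773 to 0.122 for Epas1. Empty plasmid 32 was the highest library for 25 of the 31 members, so leaving it out raises their log2 fold changes by arithmetic. Why that library was high, and the causes of the other moves, were not tested. No paired analysis was possible because the groups share no sample numbers. Depth limits Hif3a and Car9, which had at most 10 counts in any library.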

Other observations

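Within the Yy1 group, Yy1 plasmid 45 held the highest level of the 4 libraries for 17 of the 31 tested members, or 54.8%, against 27.0% of all tested genes. The members' median log2 deviation of this library from the other 3 was 0.06. It also had the highest Yy1 level of the group, 5897 CPM, against 4814 to 5118 CPM in the others. No relation between the levels of Yy1 and of the members was tested.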
